A study of Mus musculus with 8 samples.

Results

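The interferon regulatory factors (IRFs) are a family of transcription factors, and their transcripts were followed here in mouse follicular B cells that met their antigen through one of a pair of receptors. The members were chosen by gene symbol: every probe set, the group of short oligonucleotides that reports a transcript on the array, whose annotation names Irf1, Irf2, Irf3, Irf4, Irf5, Irf7, Irf8 or Irf9 and no other gene. This gave 9 probe sets for 7 of the 8 genes, out of 12422 probe sets that are not array controls. Irf2 matched no probe set by this rule and was not analysed here. Irf3 and Irf7 had 2 probe sets each and the other 5 genes had 1. All 9 were among the 7453 probe sets bright enough on average to be tested, so no member was lost to the filter on dim values.

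The IRFs share a DNA-binding domain that recognises GAAA repeats in the promoters of interferon and interferon-stimulated genes. Irf4 and Irf8 are the lymphoid and myeloid members: they bind DNA poorly alone and act with partners such as PU.1, Spi-B and the AP-1 factor Batf. In B cells Irf4 is known as a gene induced by the antigen receptor that drives class switching and plasma cell formation at high levels, while Irf8 is known in follicular and germinal centre B cells. Irf3, Irf5 and Irf7 are activated by kinases below innate sensors and switch on interferon genes. Irf9 is part of the factor that carries the type I interferon signal to DNA, and Irf1 is induced by interferon gamma.

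The cells were sorted follicular (FO) B cells whose receptor recognises hen egg lysozyme (HEL). It was either an IgM or IgMG, a chimera that carries the extracellular spacer, transmembrane and cytoplasmic domains of IgG1. Each kind of cell was profiled without stimulation and after HEL, on 2 arrays per group and 8 arrays in all. All groups are of the same cell type by label, and every array is a pool of 2 to 8 mice from 1 to 3 sorts. The IgM arrays pooled 2 to 4 mice and the IgMG arrays 5 to 8, so receptor and pool size cannot be told apart. The sources used here do not give mouse strain, age, HEL dose or time after HEL. The labels do not say whether the 2 pools of a group are independent animals. The p-values rest on the spread between arrays within groups, pooled over all groups and moderated over the tested probe sets. They need not reflect the spread between animals.

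Values are MAS 5 signals on a linear scale, and changes are differences of log2(signal + 16), which understates changes of dim genes. Median signals per array were 40.7 to 47.8. Of 8 B cell markers 7 had a probe set, all bright enough to be tested, and their summed signal was 25058 to 34405 on the 8 arrays. The summed signal of 12 myeloid markers was 1325 to 5947 on 7 arrays and 13980 on the second unstimulated IgMG array, and that of 5 NK cell markers 175 to 501 and 2050. Of 6 T cell markers 1 was bright enough to be tested. Erythroid markers summed to 12557 to 19916. The summed signal of 6 marginal zone B markers was 987 and 1284 on the unstimulated IgM arrays and 1753 and 1604 on the unstimulated IgMG arrays. After HEL the myeloid sums were 5947 and 5509 on the IgMG arrays and 4128 and 1325 on the IgM arrays. In the same order the NK sums were 501 and 427 against 296 and 232. The erythroid sums were 19916 and 15971 against 15412 and 13733, and the B cell sums 34405 and 29686 against 25058 and 28726. Single B cell markers moved with HEL in both directions. Cd22 went from 1242 and 1326 to 645 and 641 in IgM cells, and Cd74 from 7658 and 9330 to 12417 and 11742 in IgMG cells. The B cell sum therefore does not separate the share of B cells from their response to HEL. The plasma cell markers Prdm1 and Sdc1 stayed at 9.80 to 32.3 and 5.50 to 20.6, too dim to be tested. Jchain, another plasma cell marker, gave 548 on the second unstimulated IgMG array and 22.5 to 178 on the others. The summed signal of 5 plasma cell markers was 974 on that array and 394 to 613 on the others. The Gapdh 5'/3' signal ratio, a measure of RNA and labelling quality, is lower where the 5' end gives less signal than the 3' end. It was 0.755, the highest, on the second HEL-stimulated IgM array and 0.140 to 0.395 on the others. This array and the second unstimulated IgMG array stand apart. IRF values that move by over 1.5 times without either are given both ways.

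The promoter windows of the 4 members that passed the test are shown first, so that the letters upstream of the genes that moved can be read beside their values. Each runs from 250 bases before to 50 after a transcription start in RefSeq, build GRCm38.p6, written 5' to 3' along the gene's plus strand. Irf4 lies at chr13:30748983-30749282, Irf8 at chr8:120736108-120736407, Irf5 at chr6:29526375-29526674 and Irf9 at chr14:55603735-55604034. For Irf8 and Irf9, which have 2 annotated starts, the first is printed. Capitals mark matches to any of 5 motifs searched on both strands: the IRF element AANNGAAA, a kappaB-like GGNNNTTCC, the Stat motif GAS as TTCNNNGAA, AP-1 as TGANTCA and the Egr motif GCGNGGGCG.
Irf4: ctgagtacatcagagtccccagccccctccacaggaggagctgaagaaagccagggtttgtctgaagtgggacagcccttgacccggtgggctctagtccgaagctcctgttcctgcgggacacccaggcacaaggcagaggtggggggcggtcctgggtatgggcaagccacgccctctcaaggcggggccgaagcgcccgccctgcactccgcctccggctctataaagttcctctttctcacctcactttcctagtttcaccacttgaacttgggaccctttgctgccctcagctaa
Irf8: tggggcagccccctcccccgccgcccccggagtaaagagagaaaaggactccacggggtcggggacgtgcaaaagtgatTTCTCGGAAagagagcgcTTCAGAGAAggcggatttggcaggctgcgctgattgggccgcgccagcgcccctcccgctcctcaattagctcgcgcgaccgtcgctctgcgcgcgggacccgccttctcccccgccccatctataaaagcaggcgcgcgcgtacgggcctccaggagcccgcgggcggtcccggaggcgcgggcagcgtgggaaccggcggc
Irf5: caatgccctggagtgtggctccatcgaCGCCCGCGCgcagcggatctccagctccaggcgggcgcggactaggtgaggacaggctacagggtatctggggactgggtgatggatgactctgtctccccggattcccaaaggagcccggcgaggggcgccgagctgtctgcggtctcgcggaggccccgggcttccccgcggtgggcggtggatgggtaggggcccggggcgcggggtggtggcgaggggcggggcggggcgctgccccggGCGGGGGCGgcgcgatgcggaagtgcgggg
Irf9: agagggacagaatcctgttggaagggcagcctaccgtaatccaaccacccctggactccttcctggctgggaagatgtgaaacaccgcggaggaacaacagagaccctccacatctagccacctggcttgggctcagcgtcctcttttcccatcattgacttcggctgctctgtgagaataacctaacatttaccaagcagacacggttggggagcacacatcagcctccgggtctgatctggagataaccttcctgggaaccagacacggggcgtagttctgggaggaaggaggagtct

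Irf8 held 2 GAS matches, starting 171 and 153 bases before the start, a motif found in 8.30% of all 32851 windows of this length. Irf5 held 2 Egr matches, at 223 bases before and 21 after the start, a motif found in 5.55% of windows. The Irf4 window, both Irf9 windows and the second Irf8 window held none of the 5 motifs. Of the other members, Irf1 held a GAS match 90 bases and an Egr match 38 bases before the first of its 2 starts, and Irf3 a kappaB-like match 228 bases before. The window of Irf2, which was not measured here, held 2 IRF elements, a kappaB-like and a GAS match, and no other member's window held an IRF element. Such matches are descriptions of letters, not binding sites, and a window without one says nothing about regulation from elsewhere. The IRF element occurred in 23.9% of all windows and the kappaB-like motif in 18.5%.

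Irf4 rose with HEL in cells of either receptor, and it is the member with the largest change. Its signals were 372.5 and 480.4 on the unstimulated IgM arrays and 5440 and 6091 after HEL. On the IgMG arrays they were 489 and 418.5 without HEL and 3298 and 2894 with it. The stimulated arrays lay far above the unstimulated ones for each receptor, with no overlap, and after HEL the higher IgMG value was below the lower IgM value. The group means were 426 ± 76.3 and 5765 ± 460 (SD, n = 2 each) in IgM cells, a ratio of 13.5, and 454 ± 49.9 and 3096 ± 286 (SD, n = 2 each) in IgMG cells, a ratio of 6.82. The log2 rise was 3.72 ± 0.17 (SE, adjusted p = 9.80e-06 in limma) in IgM and 2.73 ± 0.17 (SE, adjusted p = 1.08e-04) in IgMG cells. In sorted pools a change in the share of cells and in RNA per cell cannot be told apart. By p-value Irf4 ranked 4 of 7453 in each response, and by size 12 among the rises in IgM and 15 in IgMG cells.

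Irf8 also rose in both kinds of cell, by less. Its signals went from 2727 and 2352 to 4375 and 5024 in IgM cells, and from 2237 and 2226 to 4804 and 5292 in IgMG cells. Here the stimulated arrays of the receptors interleaved, with an IgM array lowest and an IgMG array highest. The ratio of means was 1.85 in IgM and 2.26 in IgMG cells, the log2 rises 0.88 ± 0.14 (SE, adjusted p = 0.00415 in limma) and 1.17 ± 0.14 (SE, adjusted p = 0.00277). Irf8 ranked 36 of 7453 by p-value in the IgMG response and 215 in the IgM response.

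Irf5 and Irf9 fell in IgM cells. Irf5, which acts below Toll-like receptors, gave 659 and 651 without HEL and 352 and 322 with it, so that the stimulated mean was 51.4% of the unstimulated. The log2 change was -0.93 ± 0.25 (SE, adjusted p = 0.0389 in limma). Irf9, the DNA-binding part of the interferon-activated factor, went from 840 and 943 to 526 and 424, to 53.2% of the unstimulated mean, with a log2 change of -0.89 ± 0.22 (SE, adjusted p = 0.0291). For both genes the groups did not overlap, but with 2 arrays a side the smallest p of an exact permutation test is 0.333. These calls lie near the threshold: Irf5 missed it under 9 of 20 other settings, with adjusted p-values up to 0.178, and Irf9 under 8 of 20, up to 0.167. Their log2 changes stayed between -0.99 and -0.81 and between -1.04 and -0.72 in those settings. Without the second HEL-stimulated IgM array the changes were -0.87 and -0.74, with adjusted p-values of 0.178 and 0.167. With a covariate for the Gapdh 5'/3' ratio they were -0.81 and -0.72, with adjusted p-values of 0.134 and 0.107.

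In IgMG cells neither passed. Irf5 stood at 638 and 368 without HEL and at 420 and 330 with it, a log2 change of -0.37 ± 0.25 (SE, adjusted p = 0.432 in limma). Irf9 stood at 929 and 624 without and 715 and 581.5 with HEL, a change of -0.23 ± 0.22 (SE, adjusted p = 0.589). In each gene the lower unstimulated value, within the range of the stimulated arrays, came from the second unstimulated IgMG array, the array with the highest myeloid and NK marker sums. Without that array the changes were -0.75 for Irf5 and -0.52 for Irf9, and still did not pass. Without the first unstimulated IgMG array they were 0.02 and 0.05. The part of the other cell types in these values was not tested.

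Irf1, Irf3 and Irf7 passed in no comparison. Irf1 gave 684, 496, 678 and 678 on the first and second unstimulated and stimulated IgM arrays, and 474, 673, 617 and 610 in the same order in IgMG cells. Its unstimulated arrays span the stimulated ones in both kinds of cell, and its log2 changes were 0.21 ± 0.21 and 0.12 ± 0.21 (SE). In IgMG cells it was 0.36 without the second unstimulated array and -0.13 without the first. Irf3, by its brighter probe set, went from 188 and 210 to 285 and 348 in IgM cells, a change of 0.63 ± 0.19 (SE) that narrowly missed with an adjusted p = 0.0594 in limma. In IgMG cells it gave 233 and 275.5 without and 243 and 202 with HEL (-0.18 ± 0.19), or -0.07 without the second unstimulated IgMG array. At the 0.05 threshold it passed in IgM cells under 1 of 20 other settings, in which the test was limited to the brightest 40% of probe sets, with an adjusted p = 0.0406.

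Irf7, by its brighter probe set, gave 136 and 178 without and 170 and 250 with HEL in IgM cells, and 210 and 159 without and 117.5 and 114 with HEL in IgMG cells. The groups overlapped in IgM cells and did not in IgMG cells. The log2 changes were 0.37 ± 0.24 and -0.59 ± 0.24 (SE), with adjusted p-values of 0.342 and 0.180 in limma. Without the second HEL-stimulated IgM array the IgM value was 0.11. The second probe sets of Irf3 and Irf7 are of the kind named _f_at, which can match several related transcripts. They were dimmer, with mean signals of 44.8 and 86.4 against 248 and 167 for the first. For Irf3 the second gave 0.19 ± 0.23 in IgM cells, with the sign of the first, and 0.13 ± 0.23 in IgMG cells, with the opposite sign. For Irf7 it gave -0.17 ± 0.21 and -0.07 ± 0.21 (SE), opposite in sign to the first in IgM cells.

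**Figure D1:**
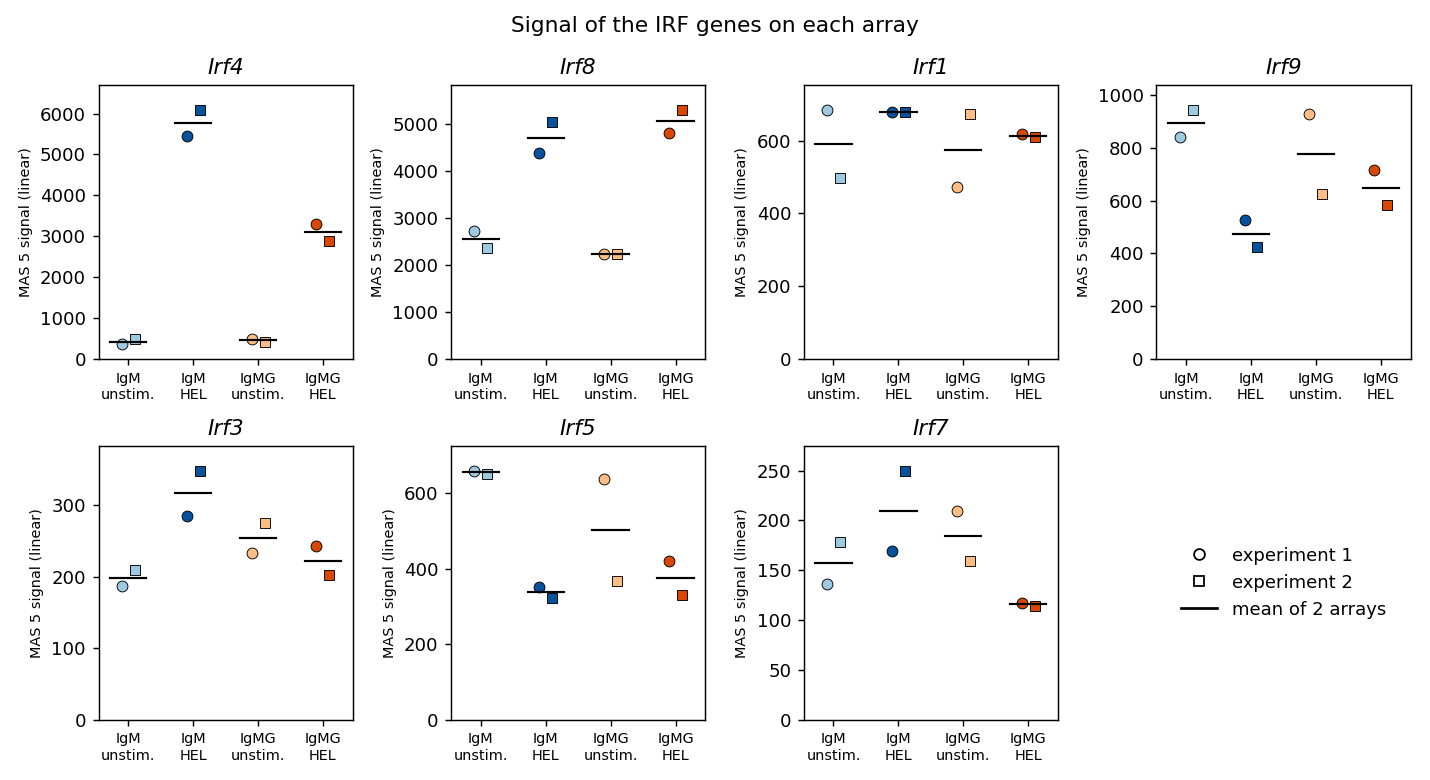
MAS 5 signal (linear axis from 0) of each IRF gene, by its brightest probe set, on every array; circles are experiment 1, squares experiment 2 and bars the mean of 2 arrays. Irf4 and Irf8 rose with HEL for both receptors, Irf4 to 5765 in IgM and 3096 in IgMG cells, while Irf5 and Irf9 were lower with HEL in IgM cells.

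Counted over the 7 genes in IgM cells, 2 rose and 2 fell, against 6.70% of all tested probe sets that rose and 7.31% that fell. In IgMG cells 2 rose and 0 fell, against 3.23% and 2.42%. The median log2 change of the 7 genes was 0.37 in IgM and -0.18 in IgMG cells, beside -0.02 and -0.05 over all tested probe sets. In IgMG cells 0 of 7 fell at the threshold and Irf7 alone had a lower value at an unadjusted p of 0.0338. The family therefore did not move one way in IgM cells. Of the members called there, Irf4 and Irf8 were higher and Irf5 and Irf9 lower. In IgMG cells only the rises of Irf4 and Irf8 were called. The rises of Irf4 and Irf8 passed under each of the 20 other settings in which their changes were refitted, for both receptors, with adjusted p-values up to 7.09e-04 and 0.0386 in IgM and 0.00487 and 0.0447 in IgMG cells.

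**Figure D2:**
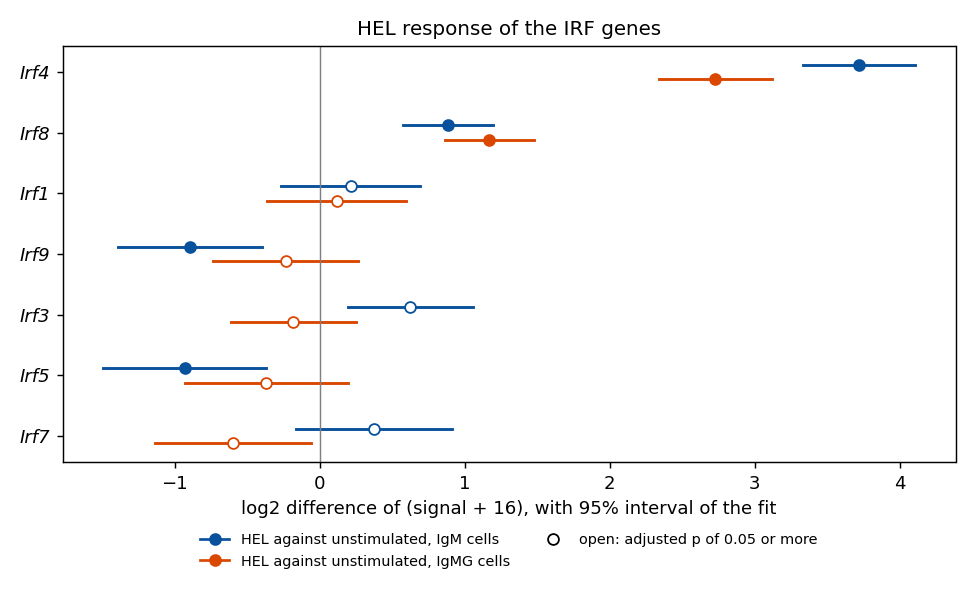
Log2 change of (signal + 16) with HEL for each IRF gene in IgM (blue) and IgMG (orange) cells, with the 95% interval of the fit over 8 arrays; filled points passed an adjusted p of 0.05. Irf4 is at 3.72 and 2.73, Irf8 at 0.88 and 1.17, and the intervals of Irf1 include 0 for both receptors.

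**Figure D3:**
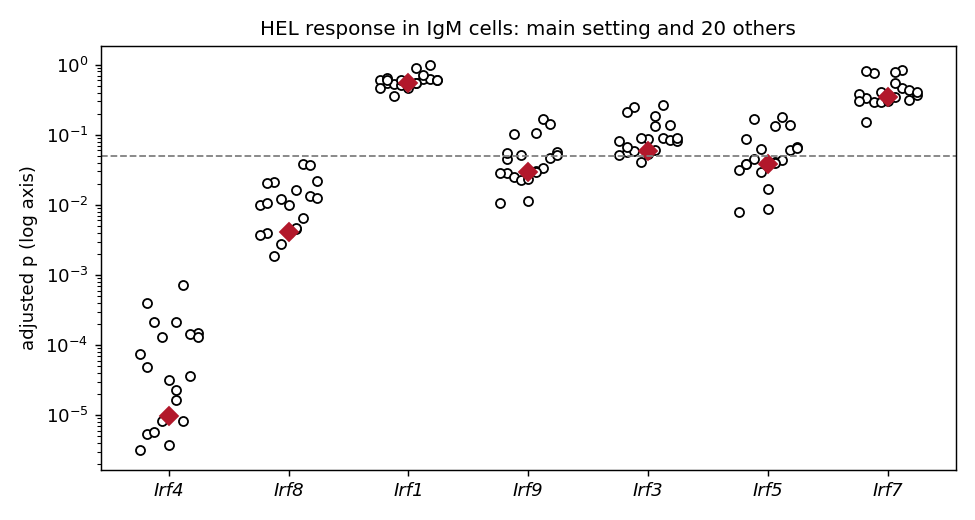
Adjusted p (log axis) of each IRF gene's HEL response in IgM cells, in the reported setting (red diamonds) and in 20 others (open circles); the dashed line is 0.05. Irf4 and Irf8 stay below the line, while Irf5 and Irf9 lie on both sides of it.

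The design asks whether the response depends on the receptor. No IRF gene passed in the test of the difference between the responses, where 0% of 7453 probe sets passed in limma. Irf4 had the smallest p among the members: its log2 rise was smaller in IgMG cells by a difference of -0.99 ± 0.24 (SE, 95% interval -1.54 to -0.44, unadjusted p = 0.00280, adjusted p = 0.412). Irf7 (-0.97 ± 0.34, adjusted p = 0.434) and Irf3 (-0.81 ± 0.27, adjusted p = 0.422) also had negative differences, each by its brighter probe set. Their dimmer second probe sets gave 0.11 ± 0.30 and -0.06 ± 0.33, with wide 95% intervals of -0.57 to 0.78 and -0.80 to 0.69. In all, 3 of 7 genes had an unadjusted p under 0.05, against 10.1% of all tested probe sets. The differences of Irf4, Irf3 and Irf7 kept their sign under 19 other settings, those of Irf4 lying between -1.16 and -0.81 with adjusted p-values from 0.200 to 0.922.

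The difference of responses of Irf8 was 0.29 ± 0.19 (SE, adjusted p = 0.607 in limma), with an interval of -0.15 to 0.72 that leaves room for a larger or a slightly smaller rise in IgMG cells. The log2 ratio of Irf4 to Irf8 signal within an array, relative to the unstimulated arrays of the same receptor, was higher by 2.85 and 2.81 on the stimulated IgM arrays and by 1.72 and 1.39 on the stimulated IgMG arrays. The shift was larger on both IgM arrays, but with 2 arrays a side the smallest p of an exact permutation test is 0.333. Irf9 and Irf5 had differences of 0.66 ± 0.31 and 0.56 ± 0.35 (SE), with adjusted p-values of 0.484 and 0.581. Without the second unstimulated IgMG array these differences were 0.38 and 0.18, without the first 0.94 for each gene, and without both arrays that stand apart 0.23 and 0.12. Irf1 had -0.10 ± 0.30, and its sign turned under 5 of 19 other settings, among them centring each array on its median.

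After HEL the receptors were also compared directly. The Irf4 mean in IgMG cells was 53.7% of that in IgM cells, a log2 difference of -0.89 ± 0.17 (SE, 95% interval -1.28 to -0.51, unadjusted p = 5.61e-04, adjusted p = 0.178 in limma). This ranked 23 of 7453 by p-value, in a comparison where 0.0134% of probe sets passed and 0 of the 7 IRF genes did. Irf7 stood at 55.1% of the IgM mean (-0.75 ± 0.24, adjusted p = 0.247) and Irf3 at 70.3% (-0.48 ± 0.19, adjusted p = 0.317), by their brighter probe sets. Their dimmer second ones gave 0.01 ± 0.21 and -0.09 ± 0.23. Irf4, Irf7 and Irf3 had an unadjusted p under 0.05, as had 1041 of the 7453 tested probe sets. Irf8 was at 107% of the IgM mean (0.10 ± 0.14), Irf9 at 136% (0.44 ± 0.22), Irf5 at 111% (0.14 ± 0.25) and Irf1 at 90.5% (-0.14 ± 0.21). Across other settings the Irf4 difference lay between -0.99 and -0.80 and its adjusted p between 0.103 and 0.795. The Gapdh 5'/3' ratio was 0.328 and 0.755 on the stimulated IgM arrays and 0.221 and 0.140 on the stimulated IgMG arrays, and with it as a covariate the Irf4 difference was -0.91. Leaving out the second HEL-stimulated IgM array gave -0.81 for Irf4, -0.50 for Irf7 and -0.34 for Irf3. It gave 0.29 for Irf9, 0.20 for Irf8 and 0.08 for Irf5. The myeloid, NK, erythroid and B cell marker sums were also higher on both stimulated IgMG arrays than on both stimulated IgM arrays. So were those of 6 marginal zone B markers (1283 and 1272 against 1070 and 918) and 5 plasma cell markers (613 and 574 against 517 and 490). The same held for 2 plasmacytoid dendritic markers (248.5 and 292 against 202 and 219). The T cell sums, at 154 and 79.1 against 97 and 112, overlapped. The part of other cell types in these differences was not tested.

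Before HEL no IRF gene passed between the receptors. Irf4 was at 106% of the IgM mean in IgMG cells (0.09 ± 0.17), Irf1 at 97.1% (-0.04 ± 0.21) and Irf8 at 87.9% (-0.18 ± 0.14). Irf9 was at 87.0% (-0.22 ± 0.22), Irf5 at 76.8% (-0.42 ± 0.25), Irf7 at 118% (0.21 ± 0.24) and Irf3 at 128% (0.33 ± 0.19), errors being SEs. In limma 0 of the 7 passed, against 0% of all probe sets, and 0 had an unadjusted p under 0.05, beside 343 of the 7453 tested. The Irf5 interval, -0.98 to 0.14, is the widest among the 7. Without the second unstimulated IgMG array Irf5 differed by -0.04 and Irf9 by 0.06, and without the first by -0.80 and -0.50. Irf7 differed by 0.39 and 0.03, Irf4 by 0.20 and -0.02, Irf3 by 0.21 and 0.44, and Irf1 by -0.29 and 0.20 in the same settings. The marginal zone B and NK marker sums were higher on both unstimulated IgMG arrays than on both unstimulated IgM arrays, and the B cell sums lower. The other marker sums overlapped. The part of other cell types or B cell subsets in these differences was not tested.

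**Figure D4:**
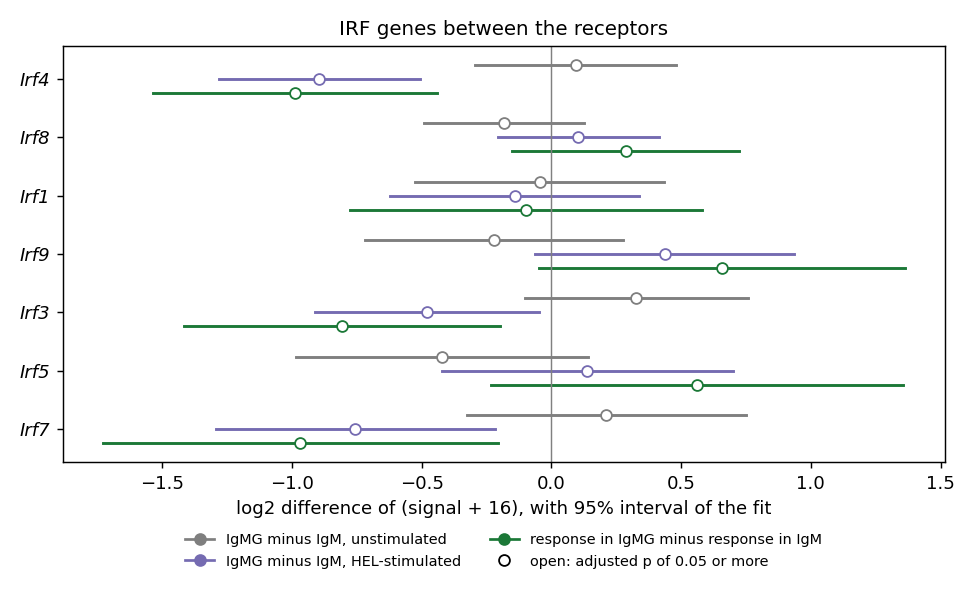
Log2 difference of (signal + 16) between the receptors for each IRF gene, without HEL (grey), with HEL (purple) and for the response (green), with 95% intervals of the fit over 8 arrays; all points are open because none passed an adjusted p of 0.05. Irf4 lies at 0.09 without HEL, -0.89 with HEL and -0.99 for the response.

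Genes with profiles most like those of the 4 called members were listed by Pearson correlation over the log2 values of the 8 arrays, as a description of these arrays, which fall into stimulated and unstimulated ones. Genes chosen this way tend to share a member's pattern over the receptors by selection, so their changes are no separate evidence for it. Closest to Irf4 were Mapk6 (r = 0.998), an atypical MAP kinase, Phf23 (0.996) and Plk2 (0.995), a polo-like kinase. Mapk6 changed by 2.68 and 1.89 on the log2 scale in IgM and IgMG cells and Plk2 by 5.02 and 3.52, each a smaller value in IgMG cells. Closest to Irf8 were the phosphatase gene Dusp2 (0.989), Snx5 (0.989) and the glycolytic enzyme gene Pgam1 (0.988), whose changes of 2.56 and 2.67, 1.64 and 1.79, and 0.74 and 1.12 were at least as large in IgMG cells. Closest to Irf9 were Tbl1xr1 (0.991), Gnai2 (0.989) and Sh3bp1 (0.989), and closest to Irf5 were Emid1 (0.982), the lysosomal regulator Tfeb (0.969) and Atxn7l1 (0.963).

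Of 18 partner factors of Irf4 and Irf8, 15 were tested: 4 rose and 2 fell in IgM cells, and 4 rose and 1 fell in IgMG cells. Over all tested probe sets 6.70% rose and 7.31% fell in IgM cells, and 3.23% rose and 2.42% fell in IgMG cells. The AP-1 gene Junb rose by 2.28 ± 0.22 in IgM and 1.57 ± 0.22 in IgMG cells, and Fos by 1.36 ± 0.33 and 1.59 ± 0.33. Nfatc1, the calcium-regulated factor, rose by 2.99 ± 0.18 and 2.65 ± 0.18, and Stat6, which carries the interleukin 4 signal, by 0.87 ± 0.14 and 0.83 ± 0.14. Spib, which encodes the Ets partner Spi-B, fell in both, by 0.90 ± 0.19 and 0.86 ± 0.19 on the log2 scale (adjusted p = 0.0172 and 0.0389 in limma), from mean signals of 3570 to 1907 and of 2536 to 1386. A second, noisier Spib probe set gave -0.30 ± 0.66 and -0.60 ± 0.66. The median over the 15 genes was 0.13 and 0.23, beside -0.02 and -0.05 over all probe sets. Without the second HEL-stimulated IgM array 3 rose and 1 fell in IgM cells, and without the second unstimulated IgMG array 0 fell in IgMG cells.

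Of 22 genes named as targets of Irf4 or Irf8 in B cells, 19 were tested: 3 rose and 5 fell in IgM cells, and 2 rose and 0 fell in IgMG cells. The shares over all probe sets were 6.70% and 7.31% in IgM cells and 3.23% and 2.42% in IgMG cells. Myc rose by 3.69 ± 0.22 and 3.54 ± 0.22, and Mef2c, a factor needed for B cell proliferation after receptor signalling, by 1.17 ± 0.17 and 0.94 ± 0.17. One other Mef2c probe set passed in both cells, another in IgM cells alone and the last in neither. The chemokine receptor gene Ccr7 rose in IgM cells by 1.92 ± 0.28 and had 0.80 ± 0.28 in IgMG cells (adjusted p = 0.130 in limma). The receptor kinase gene Syk fell in IgM cells by 0.91 ± 0.18 and the inhibitory Fc receptor gene Fcgr2b by 0.86 ± 0.16 on the log2 scale, and in IgMG cells the values were -0.59 ± 0.18 and -0.44 ± 0.16. The medians over the 19 genes were -0.42 and -0.22, against -0.02 and -0.05 over all probe sets. Without the second HEL-stimulated IgM array 3 rose and 1 fell in IgM cells, and without the second unstimulated IgMG array 1 rose and 1 fell in IgMG cells.

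Of 57 interferon-stimulated genes, 35 were tested, and 0 rose and 12 fell in IgM cells while 0 rose and 5 fell in IgMG cells. Of all probe sets 7.31% and 2.42% fell. The median log2 change of the 35 genes was -0.60 and -0.26, that of all probe sets -0.02 and -0.05. Usp18, which shuts off interferon receptor signalling, fell by 1.05 ± 0.19 in IgM and 0.94 ± 0.19 in IgMG cells, from mean signals of 209 to 92.8 and of 186 to 89.0. The interferon-inducible GTPase genes Igtp and Ifi47 fell by 1.07 ± 0.18 and 1.24 ± 0.21 on the log2 scale in IgM and by 0.88 ± 0.18 and 0.90 ± 0.21 in IgMG cells. Gbp3 and Ifit3 fell in IgM cells by 2.83 ± 0.40 and 1.96 ± 0.30 and had -1.53 ± 0.40 and -1.06 ± 0.30 in IgMG cells, where they did not pass (adjusted p = 0.0618 and 0.0775 in limma). Without the second HEL-stimulated IgM array 6 fell in IgM cells, with a median of -0.35, and without the second unstimulated IgMG array 3 fell in IgMG cells, with a median of -0.29. Leaving out both gave 11 and 7.

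Of 17 genes of interferon receptors and JAK-STAT signalling, 14 were tested: 1 rose and 2 fell in IgM cells and 0 rose and 1 fell in IgMG cells. These counts are near the shares over all probe sets (6.70% and 7.31%, and 3.23% and 2.42%), and the medians of -0.10 and -0.12 lie beside -0.02 and -0.05. Stat3 rose in IgM cells by 0.72 ± 0.20 and the Stat inhibitor gene Pias1 fell by 0.67 ± 0.17 on the log2 scale, while Usp18 is the gene that fell in both. Socs3 had 0.78 ± 0.36 and 0.80 ± 0.36 by its brighter probe set, and a second one, at 1.58 ± 0.42 and 1.52 ± 0.42, passed in IgM cells alone. Ptpn6 had 0.60 ± 0.18 and 0.41 ± 0.18. Of 25 sensors, adaptors and kinases upstream of Irf3, Irf5 and Irf7, 13 were tested, and 0 rose and 2 fell in IgM cells while 0 rose and 0 fell in IgMG cells, again near those shares, with medians of 0.15 and 0.13. Trim21, a ubiquitin ligase that acts on IRFs, fell by 1.71 ± 0.22 in IgM cells and had -0.57 ± 0.22 in IgMG cells, while its other probe set had -0.96 ± 0.29 and -0.93 ± 0.29 and passed in neither. Ikbkg, a subunit of the IKK complex, fell by 1.19 ± 0.27 in IgM cells, but its other probe set had 0.17 ± 0.22. Tbk1, the kinase of Irf3 (0.36 ± 0.17 and 0.25 ± 0.17), the adaptor gene Myd88 (0.63 ± 0.19 and 0.14 ± 0.19) and Tlr7 (0.63 ± 0.19 and 0.68 ± 0.19) passed for neither receptor. In IgM cells 0 rose and 1 fell in each of these lists once the second HEL-stimulated IgM array was left out.

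**Figure D5:**
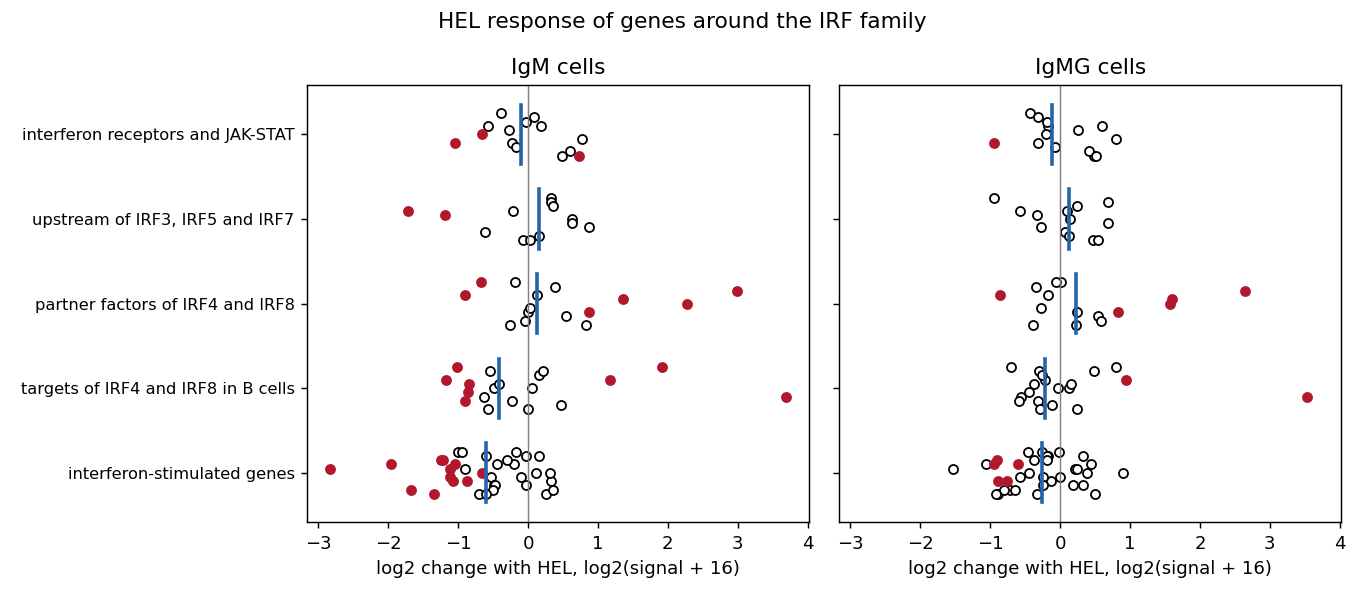
Log2 change of (signal + 16) with HEL of the tested genes in 5 lists around the IRF family, in IgM (left) and IgMG (right) cells; red points passed an adjusted p of 0.05, open points did not, and blue bars are list medians. The 12 and 5 called interferon-stimulated genes lie left of 0, and the called partner factors lie on both sides.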

How the data were processed

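Each of 8 pools of sorted FO B cells was hybridised to its own single-colour oligonucleotide array, with 2 per group, with groups and experiment numbers taken from the titles. The authors deposited 1 linear intensity per probe set and array. The submitters' processing notes name MAS 5. The trimmed mean of each array was close to 150, which is how its scaling was recognised. The sources used here give no version, target or detection calls. A global shift in RNA per cell would be scaled away.

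From 12488 probe sets, 66 controls were left out. The 60% with the highest mean signal (7453, at or above a mean of 24.5) were tested as log2(signal + 16) with limma 3.58.1 in R 4.3.3: group means fitted jointly, with a variance trend (4 residual and 4.87 prior degrees of freedom), two-sided, Benjamini-Hochberg adjustment over all 7453 at 0.05. Errors are SEs of the fit or, beside signals, SDs of 2 arrays. Symbols came from the platform annotation of 2016. Of 10833 probe sets with 1 symbol, 10817 matched the GRCm38.p6 gene table by identifier and 0 symbols changed. A gene is given by its brightest probe set. List genes were named by the 5 smallest p-values of the mean HEL response, and profile likeness by the 3 highest correlations. Members and lists were chosen with earlier results of these data known. The steps were tested on simulated data. Promoter windows are those of RefSeq, and all 8 symbols matched. Other settings covered offset, scaling, filter, trend, arrays, block, covariate, probe set averaging and threshold. Leaving out both arrays that stand apart and a crossed block were chosen after seeing the data. Figures used matplotlib 3.10.9 in Python 3.11.15.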

Additional observations from a re-analysis of the deposited data

Results flagged for a closer look

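The stimulated arrays moved in opposite directions from their unstimulated means in the 2 kinds of cell for Irf3 and Irf7, up on both IgM arrays and down on both IgMG arrays, by the brighter probe set of each. Single arrays overlapped, for Irf3 in IgMG cells (233 without and 243 with HEL) and for Irf7 in IgM cells (178 without and 170 with HEL). The share of all probe sets with such a pattern is not given here. The differences of the responses (IgMG minus IgM) were -0.81 for Irf3 and -0.97 for Irf7 on the log2 scale, with adjusted p-values of 0.422 and 0.434 in limma, so neither passed the test of the difference. The second probe sets gave -0.06 for Irf3 and 0.11 for Irf7.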

How the results depend on the processing

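The count of IRF genes called in IgM cells was 4 as reported. It was 2 (Irf4 and Irf8) without the trend, with the Gapdh 5'/3' covariate and at a threshold of 0.01, and lay between 2 and 4 when each array was left out in turn. Irf3 was also called in IgM cells at a threshold of 0.10 (adjusted p = 0.0594 in limma). With the brightest 40% of probe sets it was called at 0.05 (adjusted p = 0.0406). In IgMG cells 2 were called in every setting run, and 0 in the 3 comparisons of the receptors. With the experiment number as a replicate block the counts were 4 and 2, the block changed no call of an IRF gene, and over all probe sets it left 869 and 275 calls. The deviations of the experiments correlated by -0.16 to 0.02 between groups. This cannot settle whether arrays with the same number belong together, and the titles do not say. Crossing the numbers in the unstimulated arrays, for the correlation of -0.16, left 0 IRF genes called between the receptors before HEL. Signs turned in values that did not pass. The Irf1 difference of responses became 0.0037 with median centring, 0.24 with the covariate and 0.15 without both arrays that stand apart (a setting chosen after seeing the data), and ranged from -0.34 to 0.15 with arrays left out in turn. With the covariate the stimulated arrays differed by 0.20 for Irf1 and -0.13 for Irf5, and without both arrays the unstimulated ones by 0.060 for Irf9. With arrays left out in turn Irf1 ranged from -0.013 to 0.44 in IgM cells, from -0.13 to 0.36 in IgMG cells and from -0.29 to 0.20 between unstimulated cells, and Irf4 from -0.084 to 0.27 there. Irf9 ranged from -0.50 to 0.060 between unstimulated cells and from -0.52 to 0.046 in IgMG cells, and Irf5 from -0.75 to 0.015 in IgMG cells and from -0.028 to 0.31 between stimulated cells. The cause was not tested. Over all probe sets the calls ranged from 339 to 1558 (1044 as reported) in IgM cells and from 58 to 800 (421) in IgMG cells. They ranged from 0 to 13 (0), 0 to 35 (0) and 0 to 7 (1) for the difference of responses, the unstimulated and the stimulated cells. With 2 arrays per group the number of arrays limits precision.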
